A study of Mus musculus with 8 samples.

Results

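The transcripts described here are those that the annotation used for these data marks as retained_intron or nonsense_mediated_decay. They were read from a per-read table of poly(A) tail lengths from mouse P19 cells. A transcript was taken as a member where its class in that table was mRNA, its annotation label held either of those names, and at least 1 read assigned to it had a tail estimate that passed the quality tag. This gave 4298 transcripts of 3127 genes, out of 27609 transcripts of 13120 genes with such reads, and 40868 of 1926118 read lines. The retained_intron class held 2652 transcripts of 2135 genes with 20723 reads, and the nonsense_mediated_decay class held 1646 transcripts of 1381 genes with 20145 reads. In 389 genes both classes were present. The reference throughout was the protein_coding transcripts of the same genes, which comprised 5707 transcripts of 2988 genes with 766358 reads.

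A retained intron is an intron left in a transcript that has otherwise been spliced and polyadenylated. Such transcripts are often held in the nucleus, and they either complete splicing later or are degraded. Nonsense-mediated decay is a cytoplasmic surveillance pathway. A ribosome that stops well upstream of the last exon junction leaves a junction complex behind, UPF1 and its partners are recruited, and the transcript is cut, deadenylated and degraded. The poly(A) tail is added in the nucleus at a length well above that of most steady-state cytoplasmic mRNAs and is then shortened in the cytoplasm, so that tail length is a record of the processing a molecule has gone through. Genes of ribosomal proteins and of splicing regulators are well known for isoforms of both kinds, and in several of them the protein promotes the unproductive splicing of its own transcript.

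P19 is a mouse embryonal carcinoma line, derived from a teratocarcinoma, that stays pluripotent in culture and can be driven towards neurons. All 8 libraries came from wild-type undifferentiated cells kept in the same medium. Of these, 4 received MHY1485 at 10 µM, a small molecule sold as an activator of the kinase mTOR, and 4 received the same amount of the solvent DMSO. The medium and compound were renewed each day and RNA was taken after 24 h or 48 h, which gave 4 groups of 2 libraries. The libraries carry the numbers 21 and 23 at 24 h and 24 and 25 at 48 h. The series asked whether raising mTOR activity would change the tails of mRNAs with a 5′-terminal oligopyrimidine motif, among them those of ribosomal proteins. For the members the questions are whether their tails differ from those of the productive transcripts of the same genes, and whether MHY1485 changed their tails or their share of reads.

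Each library held between 178369 and 316546 read lines. Retained_intron transcripts took 0.975 to 1.22% of them and nonsense_mediated_decay transcripts 0.956 to 1.13%. The 4 libraries of a time point were sequenced in the same runs (3 runs at 24 h and 2 at 48 h) and no run held both times, so time and run cannot be told apart. The study's methods call the pair of libraries in each group biological replicates. P-values for single transcripts and for MHY1485 against DMSO rest on the spread between them. The others rest on differences within each library, taken over all 8 libraries of the 4 groups. Of 10 pluripotency genes 9 were detected, summed to 3450 to 3962 CPM (read counts scaled to a common library total), and Zfp42 was at 0. The summed level of neuronal markers was 220 to 404 CPM with Dcx at 0, of mesoderm markers 16.8 to 240 with Col3a1 at 0, of trophoblast markers 11.2 to 101, and of endoderm markers 0 to 9.34 with Afp and Sox17 at 0. The part of these cells in the results was not tested.

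Most members were rare. The median member had 2 reads in the retained_intron class and 3 in the nonsense_mediated_decay class, 1002 and 470 members had a single read, and only 123 and 118 reached 30 reads over the 8 libraries. Reads were seen in all 8 libraries for 383 members, and 35 had at least 10 reads in each library. The 10 transcripts with the most reads held 15.3% of the retained_intron reads and 24.3% of the nonsense_mediated_decay reads.

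What marks a member against the productive transcript was read from the annotation (GENCODE vM21, mouse build mm10, which holds 4232 of the 4298 members at the same coordinates). Of the 2614 retained_intron members whose gene has a protein_coding transcript there, 99.5% have exonic bases that no such transcript has, with a median of 520.5 nt. A whole intron of a protein_coding transcript is contained in 51.7%. Of the 1583 nonsense_mediated_decay members of such genes 63.5% have such bases, with a median of 126 nt. The rest differ only by a junction or by exons left out. The annotated stop codon lay more than 50 nt upstream of the last exon junction in 1606 of 1610 nonsense_mediated_decay members with an annotated coding sequence, at a median of 590 nt. Among the members whose gene has a protein_coding transcript, the 3′ end lay within 50 nt of a protein_coding one in 53.0% of the retained_intron and 64.8% of the nonsense_mediated_decay class. There were 2281 distinct retained introns, with a median length of 296 nt. Of these 2221 (97.4%) begin with GT and end with AG, and 35 begin with GC.

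The sequences of 5 members are shown because the results below turn on them. They are taken from the vM21 transcript sequences on mm10, in the sense of the transcript. In Rpl3, which encodes a protein of the large ribosomal subunit, transcript ENSMUST00000187578.1 keeps the 583-nt intron at chr15:80081032-80081614, minus strand. Capitals mark the intronic bases at its 5′ and 3′ edges.
Rpl3 intron start: cttctataagaactgGTAAGAGGCTCTTGG
Rpl3 intron end: GCTCTGCTCCTGAAGgcacaagtctaagaa

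In Rps12, a protein of the small subunit, the nonsense_mediated_decay transcript ENSMUST00000218142.1 keeps the 124-nt intron at chr10:23786640-23786763, minus strand. Capitals mark intronic bases in the edge sequences and the annotated stop codon in the last, which lies inside the intron.
Rps12 intron start: caaagccttagacaaGTACGTGTCTCAGTC
Rps12 intron end: TCATCCGGCCAGCAGgaaacctaggaaaag
Rps12 stop codon: gcacaaaagttcTGAatgtcatccggc

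The nonsense_mediated_decay transcript of Rpl12 (ENSMUST00000102811.9, 121 specific bases at chr2:32961840-32961960, plus strand) carries a stretch that is intronic in the productive transcripts. The gene encodes a protein of the large subunit. Capitals mark the start of that stretch, and in the stop codon sequence the annotated stop.
Rpl12 segment start: acgaggtcaaagtcgGTGCGTGCCCTCGCC
Rpl12 stop codon: gaaagttggcgaTGAcattgccaaggc

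Rpl36a and Tpi1 are shown because the aligner gave only 25.1 and 0% of their reads a mapping quality of at least 10 (explained below). The Rpl36a member (ENSMUST00000170828.1, X chromosome, plus strand) differs at the junction shown, where capitals mark the bases after it, and in its last 6 bases. Tpi1 encodes the glycolytic enzyme triosephosphate isomerase. Its member (ENSMUST00000154883.3) keeps the 84-nt intron at chr6:124812706-124812789, minus strand, with intronic bases in capitals.
Rpl36a junction: ctttgtatgcccaggAAAGCGGCGTTACGA
Tpi1 intron start: cactggggaaatcagGTGAGATGGAGGCAG
Tpi1 intron end: GTGTGTTTGTTTTAGccctggcatgatcaa

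Nanopore direct RNA reads start at the tail and often stop before the 5′ end, so a read can be assigned to a member without covering what sets it apart. Only 22.2% of retained_intron reads and 23.2% of nonsense_mediated_decay reads had a mapping quality of at least 10 (the aligner's score for a unique best placement, from 0 to 60). For protein_coding reads of the same genes the share was 68.6%. A mapping quality of 0, where another transcript fitted equally well, was held by 69.2% of the retained_intron, 58.4% of the nonsense_mediated_decay and 11.1% of the protein_coding reads. Reads whose aligned span covered at least 10 nt of member-specific sequence, or all of it in members that have fewer than 10 such bases, are called reaching reads below. They made up 26.8% of the retained_intron reads (5495 reads of 1308 members, 24.7 to 29.1% per library) and 21.7% of the nonsense_mediated_decay reads (4086 reads of 472 members, 19.4 to 25.5%). Members with fewer than 10 specific bases gave 5 of the former and 564 of the latter (13.8%, from 50 members, with 290 from Rpl36a). The file gives only the first and last aligned position, so a span may hold a gap. Of reaching reads 78.9% of the retained_intron and 66.3% of the nonsense_mediated_decay class had a mapping quality of at least 10. Reads that span a junction found only in the member were 1.74% of the retained_intron reads (357, of which 296 also reached) and 33.8% of the nonsense_mediated_decay reads (6364, of which 2822 also reached). The 3542 nonsense_mediated_decay reads that spanned such a junction without reaching had a mapping quality of at least 10 in 42.7% of cases and were kept out of both sides. What is called a read that did not reach below is one that covered neither. These were 72.9% of the retained_intron and 59.5% of the nonsense_mediated_decay reads, of which 1.53% and 3.05% had a mapping quality of at least 10.

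Over all reads of a class, tails differed little from those of the productive transcripts weighted to the same genes. In each library the protein_coding reads were weighted to the gene mix of the class, and the difference was tested over the 8 libraries by an exact two-sided sign-flip permutation test, whose smallest p is 0.0078125, with Benjamini-Hochberg adjustment over the 6 tests of this kind. The median retained_intron tail was 107 and 106 nt in DMSO at 24 h, 105 and 108 nt in MHY1485 at 24 h, 99.8 and 104 nt in DMSO at 48 h, and 96.6 and 99.3 nt in MHY1485 at 48 h. The protein_coding values in the same order were 103, 105, 105, 108, 103, 103, 93.0 and 101 nt. Both series of values overlapped, and the class lay above its reference in 5 of 8 libraries, by 0.49 nt (SD 2.23, n = 8, exact permutation adjusted p = 0.5625). The median nonsense_mediated_decay tail was 107 and 111 nt in DMSO at 24 h, 106 and 106 nt in MHY1485 at 24 h, 104 and 106 nt in DMSO at 48 h, and 98.1 and 103 nt in MHY1485 at 48 h. It lay above the reference in 7 of 8 libraries, by 1.98 nt (SD 1.93, n = 8, exact permutation adjusted p = 0.0469). These values depended on the reference and the reads taken. Against pooled protein_coding reads, without the weights, the differences were 7.59 nt in the retained_intron and 8.37 nt in the nonsense_mediated_decay class (higher in 8 of 8 libraries, exact permutation adjusted p = 0.0117 each). The retained_intron difference was 2.04 nt at a barcode confidence (how surely a read was given to its library) of at least 0.9, which passed (exact permutation adjusted p = 0.0469), and -1.05 nt in genes with at least 30 reads of both kinds.

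**Figure D1:**
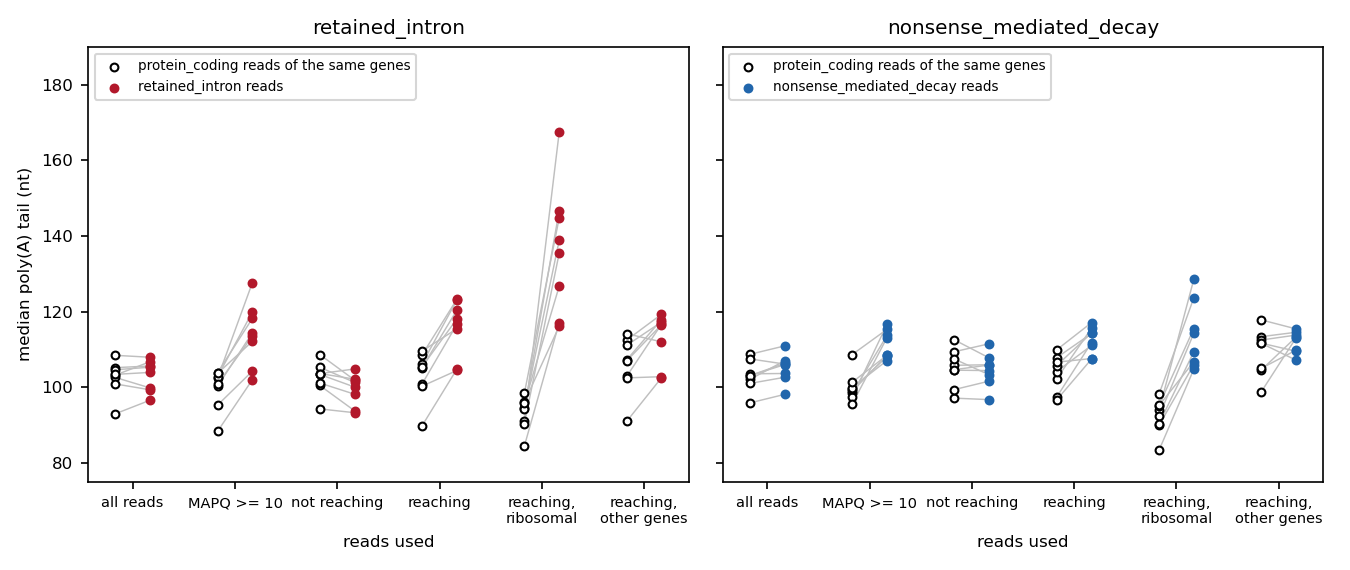
Median poly(A) tail length (nt, vertical axis) per library for each class and for the protein_coding reads of the same genes weighted to the class's gene mix, over all reads and over reads with a mapping quality of at least 10. Over all reads the points of class and reference lie close together, and at a mapping quality of at least 10 the class lies above its reference in all 8 libraries.

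Tails under 30 nt made up 3.55% of retained_intron reads against 3.0% of the weighted protein_coding reads, higher in 7 of 8 libraries by 0.55 percentage points (exact permutation adjusted p = 0.0469). For nonsense_mediated_decay transcripts that share differed by -0.17 points (exact permutation adjusted p = 0.516). Tails of 30 to 90 nt, the range in which many mature mRNAs with short tails lie, made up 37.0% of nonsense_mediated_decay reads against 37.8% of the reference, lower in 7 of 8 libraries (exact permutation adjusted p = 0.0469). In the retained_intron class they were lower by 0.72 points without passing the test (exact permutation adjusted p = 0.0938). In genes with at least 30 reads of both kinds the call for retained_intron tails under 30 nt ended at 0.37 points, as it did at a barcode confidence of at least 0.9 (0.51 points), with a bound of 20 nt (0.41 points) and without any 1 library (0.50 to 0.68 points). Those for the nonsense_mediated_decay median and tails of 30 to 90 nt ended in those genes at 1.37 nt and -0.84 points (exact permutation adjusted p = 0.27 each), and in 7 of the 8 fits without 1 library.

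When a mapping quality of at least 10 was asked of both sides, the tails of both classes stood apart from the productive ones. The median retained_intron tail was 114 and 118 nt in DMSO at 24 h, 128 and 119.9 nt in MHY1485 at 24 h, 112 and 114 nt in DMSO at 48 h, and 102 and 104 nt in MHY1485 at 48 h. The reference values were 100.3, 104, 102, 103, 104, 101, 88.3 and 95.3 nt, each below the class in its own library. The class was longer by 14.3 nt (SD 5.24; 114 against 99.7 nt, higher in 8 of 8 libraries, exact permutation adjusted p = 0.0117). Nonsense_mediated_decay tails were longer by 11.4 nt (SD 5.14; 111 against 99.9 nt, higher in 8 of 8, exact permutation adjusted p = 0.0117). Tails of 30 to 90 nt were fewer by 7.39 points in the retained_intron class (32.2 against 39.6%) and by 5.99 points in the nonsense_mediated_decay class. The share under 30 nt differed by -0.05 points in the first class and was lower by 0.81 points in the second (exact permutation adjusted p = 0.0281).

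The remaining comparisons of tails were chosen after the data were seen, and their p-values are adjusted over the 36 tests among them unless stated. Reads that reached retained_intron sequence had longer tails than the productive transcripts of the same genes, and reads that did not reach it had slightly shorter ones. The reaching median was 117 and 120.4 nt in DMSO at 24 h, 123 and 123 nt in MHY1485 at 24 h, 115 and 118 nt in DMSO at 48 h, and 105 and 104 nt in MHY1485 at 48 h. The reference was 101, 105, 109, 106, 109.6, 105, 89.8 and 100.3 nt. The difference was 12.5 nt (SD 4.80; 115.8 ± 7.43 against 103 ± 6.33 nt, SD over 8 libraries, 4507 reads, higher in 8 of 8, exact permutation adjusted p = 0.0234). Tails of 30 to 90 nt were fewer, at 31.7 against 38.2%, and tails under 30 nt differed by 0.07 points (exact permutation adjusted p = 0.9375). The reads that did not reach differed by -3.12 nt (99.4 against 102.5 nt, lower in 7 of 8, exact permutation adjusted p = 0.0496), with 3.61 against 2.91% of tails under 30 nt (exact permutation adjusted p = 0.0402). Both of these calls were lost in 7 of the 8 fits without 1 library (-3.74 to -2.60 nt and 0.64 to 0.83 points).

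Reads that reached nonsense_mediated_decay sequence showed the same order. Their median was 116 and 117 nt in DMSO at 24 h, 112 and 114 nt in MHY1485 at 24 h, 111 and 114 nt in DMSO at 48 h, and 107 and 108 nt in MHY1485 at 48 h, and each lay above its reference. The difference was 8.57 nt (SD 4.30; 112 against 104 nt, 3470 reads, exact permutation adjusted p = 0.0234), with 33.2 against 37.1% of tails between 30 and 90 nt. Its size depended on which reads were taken. It was 5.42 nt with reads across a member-only junction added (6953 reads), 17.9 nt at a mapping quality of at least 10 (2181 reads) and 10.7 nt over members with at least 10 specific bases (2930 reads), higher in 8 of 8 libraries each time (highest exact permutation adjusted p = 0.0256). With the junction reads the share of tails between 30 and 90 nt differed by -2.50 points and its call ended (exact permutation adjusted p = 0.074). Reads of this class that did not reach differed by -0.46 nt (exact permutation adjusted p = 0.794).

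Within the same genes and the same class, reaching reads could be set directly against those that did not reach. In the retained_intron class they were longer by 26.8 nt (122 against 95.4 nt, 1713 reaching reads, higher in 8 of 8 libraries, exact permutation p adjusted over 6 tests = 0.0156), and tails of 30 to 90 nt were fewer by 12 points. In the nonsense_mediated_decay class they were longer by 13.6 nt (112 against 98.7 nt, higher in 7 of 8, exact permutation p adjusted over 6 tests = 0.0352). That call ended at a barcode confidence of at least 0.9 (12.3 nt, exact permutation p adjusted over 6 tests = 0.0703) and in 6 of the 8 fits without 1 library (10.4 to 16.3 nt over all 8). Tails of 30 to 90 nt were fewer by 7.44 points, a call that ended over members with at least 10 specific bases (-8.32 points, exact permutation p adjusted over 6 tests = 0.0703). Tails of 200 nt or more made up 17.1% of reaching retained_intron reads, 8.03% of those that did not reach and 8.29% of the weighted protein_coding reads. In the nonsense_mediated_decay class these shares were 14.2, 9.11 and 8.52%. With the reference weighted to aligned length as well as to genes, the difference of reaching reads was 16.2 nt in the retained_intron class and 10.7 nt in the nonsense_mediated_decay class.

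**Figure D2:**
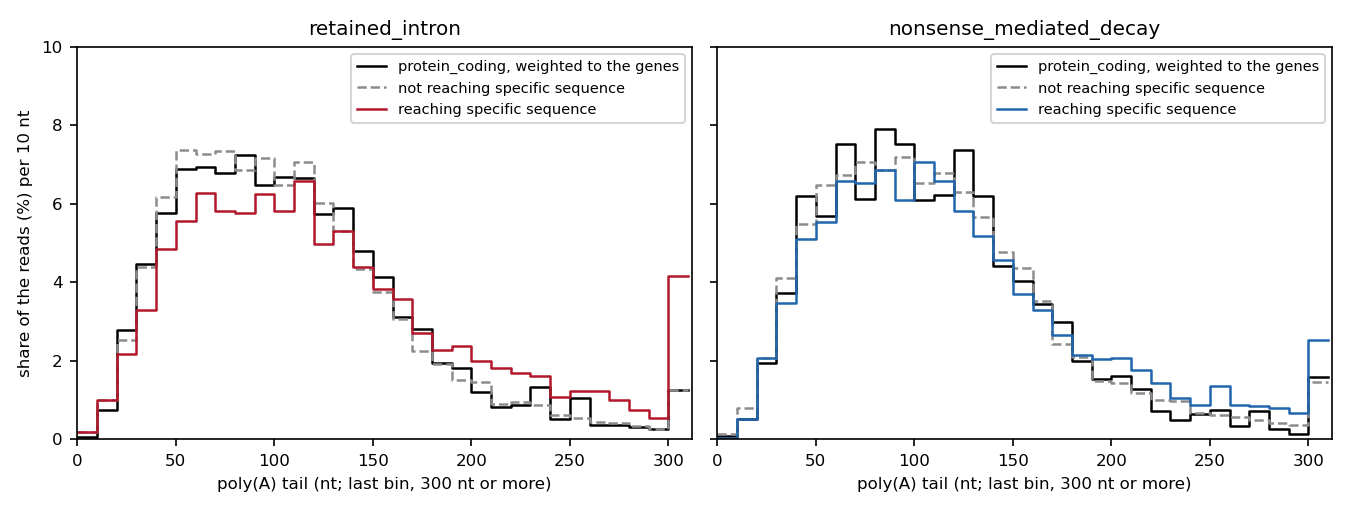
Distribution of poly(A) tail lengths (nt, horizontal axis) as percent of reads for reaching reads, for reads that did not reach, and for protein_coding reads of the same genes, in each class. Reads that did not reach lie nearer to the protein_coding curve (per-library medians averaged 99.4 against 102.5 nt in the retained_intron class), and reaching reads have a lower peak between 30 and 90 nt and more reads at 200 nt or more, 17.1% in the retained_intron and 14.2% in the nonsense_mediated_decay class.

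The difference was large where member and productive transcript end at the same place. Reaching retained_intron reads of transcripts whose 3′ end lies within 50 nt of a protein_coding 3′ end had tails longer by 27.5 nt (SD 8.89; 129 against 101 nt, higher in 8 of 8 libraries, exact permutation adjusted p = 0.0234), and tails of 30 to 90 nt were fewer by 11.6 points. Where the transcript has a 3′ end of its own the difference was 4.53 nt (exact permutation adjusted p = 0.1875). The gap between these kinds of retained_intron transcript was 22.9 nt (8 of 8 libraries, exact permutation p adjusted over 4 tests = 0.0156). For nonsense_mediated_decay transcripts the values were 11.4 nt with a shared 3′ end (109.7 against 98.3 nt, exact permutation adjusted p = 0.0234) and 3.82 nt with one of their own (exact permutation adjusted p = 0.627). The gap between them, 7.56 nt, was positive in 5 of 8 libraries and did not pass the test (exact permutation p adjusted over 4 tests = 0.211).

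Reaching reads of ribosomal protein genes had long tails. Members were found in 55 of the 104 ribosomal protein genes with reads, as 91 retained_intron transcripts with 3587 reads and 27 nonsense_mediated_decay transcripts with 4293 reads. Their reaching retained_intron reads (695 reads of at most 31 genes in a library) had median tails of 116 and 145 nt in DMSO at 24 h, 139 and 147 nt in MHY1485 at 24 h, 167 and 127 nt in DMSO at 48 h, and 117 and 135 nt in MHY1485 at 48 h. The productive reads of these genes lay between 84.5 and 98.4 nt, with no overlap. The difference was 43.5 nt (SD 16.8; 137 against 93.1 nt, exact permutation adjusted p = 0.0234), and 25% of these tails against 45.1% lay between 30 and 90 nt. Their reaching nonsense_mediated_decay reads (971 reads of at most 12 genes in a library) had tails longer by 21.3 nt (114 against 92.3 nt, higher in 8 of 8, exact permutation adjusted p = 0.0234), with 32.4 against 45.8% between 30 and 90 nt. Of these reads 290 were from Rpl36a, whose member has only 6 specific bases, and over members with at least 10 the difference was 32.4 nt (124 against 92.0 nt, 680 reads, exact permutation adjusted p = 0.0234).

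In all other genes the reaching reads differed less. The retained_intron difference was 7.08 nt (higher in 7 of 8 libraries, exact permutation adjusted p = 0.0496), a call lost in 7 of the 8 fits without 1 library (6.12 to 8.40 nt). The nonsense_mediated_decay difference was 2.66 nt (exact permutation adjusted p = 0.465). Ribosomal protein genes exceeded the other genes by 36.4 nt in the retained_intron class (8 of 8, exact permutation p adjusted over 4 tests = 0.0156) and by 18.7 nt in the nonsense_mediated_decay class (7 of 8, exact permutation p adjusted over 4 tests = 0.0208), or by 28.6 nt over members with at least 10 specific bases. Ribosomal protein genes have many near-identical pseudogene copies, and reads of a copy could be placed on a member or the reverse, so that their read counts are uncertain.

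Gene by gene, 88 genes had at least 10 reaching retained_intron reads and 10 protein_coding reads over all libraries. Of these 61 had a longer median tail in the reaching reads, and the median difference was 9.05 nt. This held for 17 of 19 ribosomal protein genes, with a median difference of 66.5 nt, and for 44 of 69 other genes, with 5.73 nt. Rpl3 had a median of 192 nt over 49 reaching reads against 95.2 nt in its productive reads. Rps20, of the small subunit, had 182 against 93.2 nt over 53 reads, and Rpl41, which encodes the smallest ribosomal protein, 159 against 87.9 nt over 54. The highest medians rested on few reads, with 213 against 83.4 nt in Rpl13a over 11 reads and 212 against 94.6 nt in Rpl22l1 over 12. Among the other genes, Larp7, whose protein binds and protects the 7SK RNA, had 169 against 98.8 nt over 114 reads of its members together. Its member ENSMUST00000197698.1, with 72 of these reads, had a median of only 108 nt.

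Some genes went the other way. Rpl37a had 91.0 against 93.9 nt. Ndufa7, a subunit of respiratory complex I, had 77.9 against 107 nt. The reaching reads of Eif4a1, which encodes the helicase of the cap-binding complex, had a median of 24.8 against 106 nt over 12 reads.

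For the nonsense_mediated_decay class 54 genes met the same minimum, of which 28 had longer reaching tails, with a median difference of 0.78 nt. Of the 9 ribosomal protein genes 8 had longer tails, with a median difference of 25.4 nt, and of the other 45 genes 20, with -1.85 nt. Rpl12 had 159.5 against 96.0 nt over 128 reads and Rps12 113 against 89.7 nt over 159 reads. In Rpl36a, 290 reads that covered the 6 specific bases of its member had 99.2 against 93.7 nt. Over members with at least 10 specific bases 47 genes met the minimum, of which 26 had longer reaching tails, 7 of 8 among ribosomal protein genes. Other genes with long tails were Srsf3, a splicing factor whose poison exon is well known, with 199 against 97.8 nt over 27 reads, and Srsf7 of the same family with 225 against 98.6 nt over 10 reads. The RNA helicase gene Ddx5 had 264 against 122 nt over 11 reads. Taf1d, a subunit of the RNA polymerase I factor SL1, had 196 nt over 49 reads against 85.4 nt over only 23 productive reads. The library medians of the latter ran from 61.6 to 149 nt. Rabggtb, a subunit of a Rab prenyltransferase, had 197 against 119.5 nt over 45 reads. Below their productive transcripts lay Serf2 with 82.9 against 116 nt over 171 reads and Cbx1, a heterochromatin protein gene, with 121 nt over 156 reads against 156 nt over only 13 productive reads, whose library medians ran from 112 to 195 nt. The genes named here and above for the tails of their reaching reads were chosen after their values were seen.

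**Figure D3:**
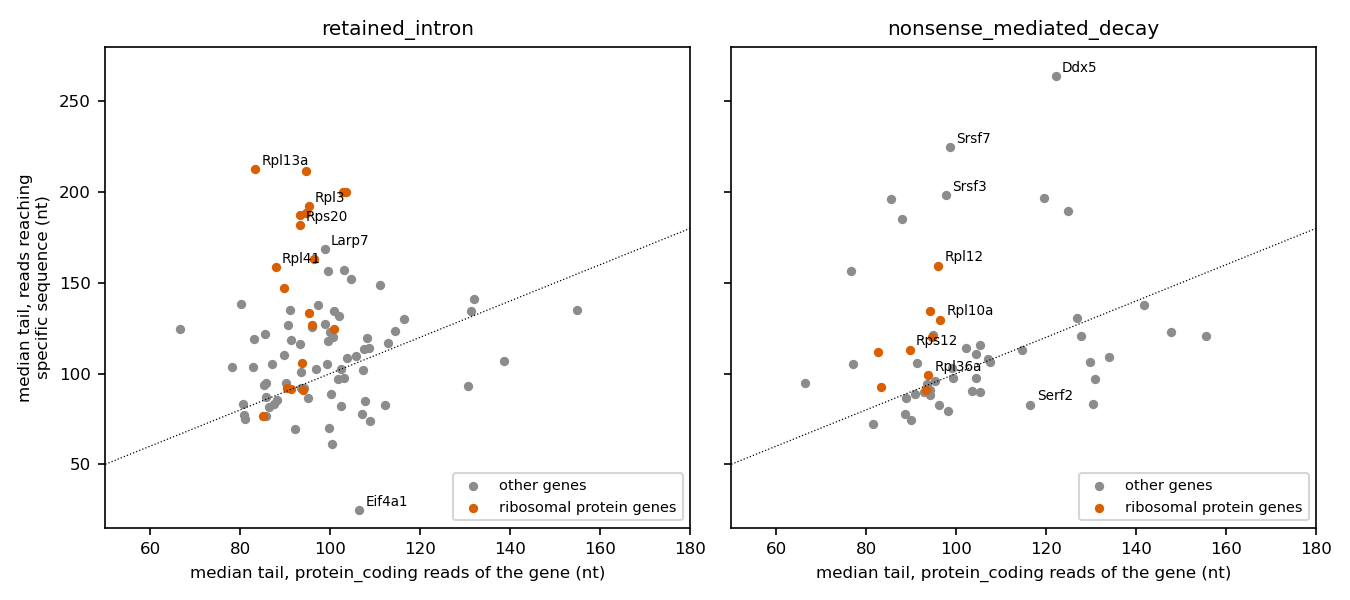
Median tail (nt) of reaching reads on the vertical axis against that of protein_coding reads of the same gene on the horizontal axis, for the 88 retained_intron and 54 nonsense_mediated_decay genes with at least 10 reads of each kind, ribosomal protein genes marked. Points above the diagonal have longer tails in the member, as in 17 of 19 ribosomal protein genes of the retained_intron class.

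Several of the genes with long tails, among them Rpl3, Rpl13a, Taf1d, Gnl3, Rps12 and Rabggtb, hold small nucleolar RNA genes within their introns. In vM21, 278 of 21924 protein_coding genes (1.27%) have a snoRNA or scaRNA gene inside them. Of the 15 such genes with enough retained_intron reads 14 had longer reaching tails, with a median difference of 54.0 nt, and of the 73 without one 47, with 5.77 nt. Among ribosomal protein genes the medians were 73.1 nt in 10 hosts, of which 10 had longer tails, and 66.5 nt in 9 other genes, of which 7 had. Among the genes of other proteins they were 36.5 nt in 5 hosts and 5.2 nt in 64 without one. In the nonsense_mediated_decay class 8 of 10 hosts had longer tails (median difference 31.9 nt) and 20 of 44 other genes (-1.80 nt), but among its ribosomal protein genes the order was the reverse, with 23.6 nt in 5 hosts, of which 4 had longer tails, and 27.4 nt in 4 other genes, all longer. Its genes of other proteins had 64.5 nt in 5 hosts and -2.82 nt in 40 without one. These are counts without a test.

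Single transcripts could be tested where a member and the other protein_coding reads of its gene had at least 10 reads each in every library. The difference in mean log2 tail was fitted with limma for all 370 transcripts that met this, of which 25 (6.76%) passed a Benjamini-Hochberg adjusted p of 0.05. Of the 26 members among them 6 passed, 3 of 14 in the retained_intron class, all shorter than the productive transcripts, and 3 of 12 in the nonsense_mediated_decay class, all longer. These shares, 21.4% and 25%, compare with 5.6% of the protein_coding transcripts in the fit. The median difference was -0.04 in the retained_intron and 0.04 in the nonsense_mediated_decay class, against -0.00 over all transcripts. Each fit takes all reads of a member, including those that do not reach.

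Rpl12 and Rpl10a, whose member is ENSMUST00000129935.7 and which also encodes a protein of the large subunit, gave the clearest single results. The Rpl12 nonsense_mediated_decay transcript had medians of 132 and 139.7 nt in DMSO at 24 h, 105 and 139 nt in MHY1485 at 24 h, 126 and 158 nt in DMSO at 48 h, and 105 and 102 nt in MHY1485 at 48 h. The productive Rpl12 reads lay between 84.1 and 101 nt, below every one of these. The log2 difference was 0.37 (SE 0.049, limma adjusted p = 5.8e-08). The Rpl10a transcript had 119.5 and 151 nt in DMSO at 24 h, 116 and 151 nt in MHY1485 at 24 h, 95.6 and 109.6 nt in DMSO at 48 h, and 88.5 and 108 nt in MHY1485 at 48 h. It was above its productive reads in 7 of 8 libraries, with 95.6 against 97.2 nt in the exception, and the log2 difference was 0.35 (limma adjusted p = 2.6e-07). Both calls held when any 1 library was left out, at 0.35 to 0.39 and 0.31 to 0.37. In Rps12 the log2 difference was 0.16 (limma adjusted p = 0.025), with medians of 86.3 to 124 nt over the libraries against 81.4 to 95.9 nt, and the call was lost without any 1 of 5 libraries. The difference was then 0.13 without library 21 of DMSO at 24 h, 0.15 without library 23 of MHY1485 at 24 h, 0.16 and 0.18 without library 24 or 25 of DMSO at 48 h, and 0.13 without library 24 of MHY1485 at 48 h. Over all 8 fits without 1 library it ran from 0.13 to 0.26.

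**Figure D4:**
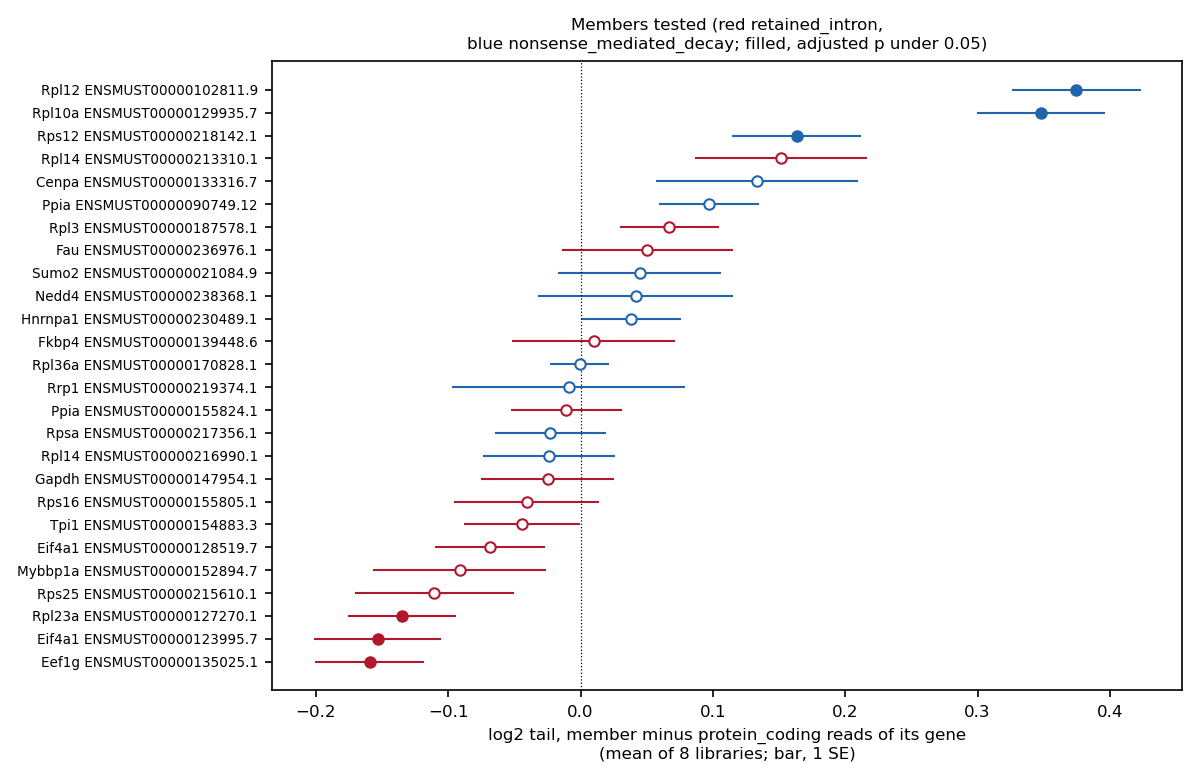
Log2 difference in tail length between each of the 26 tested members and the other protein_coding reads of its gene, with the standard error, from the limma fit over 8 libraries. Rpl12 at 0.37 and Rpl10a at 0.35 lie farthest above 0, and the members that passed below 0 are the retained_intron transcripts of Eef1g, Eif4a1 and Rpl23a.

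The shorter members were all in the retained_intron class, and few of their reads covered specific bases: 0 of 339 in Eef1g, 38 of 337 in Rpl23a and 10 of 265 in Eif4a1. Only the Eif4a1 member keeps whole introns of a productive transcript. Eef1g, which encodes a subunit of translation elongation factor 1, had medians of 78.5 and 87.7 nt in DMSO at 24 h, 105 and 112 nt in MHY1485 at 24 h, 87.9 and 85.8 nt in DMSO at 48 h, and 67.3 and 86.7 nt in MHY1485 at 48 h. The productive reads had 95.7, 103, 90.6, 100.4, 85.4, 97.9, 87.0 and 102 nt in that order, so that the sides overlapped and MHY1485 at 24 h lay above. The log2 difference was -0.16 (limma adjusted p = 0.0068), none of its reads had a mapping quality of at least 10, and the call was lost without library 25 of DMSO at 48 h (-0.15) or library 24 of MHY1485 at 48 h (-0.13). Rpl23a, of the large subunit, had 67.9 to 88.9 nt against 78.9 to 99.8 nt (log2 difference -0.14, limma adjusted p = 0.025). Its 38 reaching reads had a median of 91.2 nt, the same as the productive reads, against 77.3 nt in those that did not reach, and at a mapping quality of at least 10 they lay above the productive reads in 6 of 8 libraries. Eif4a1 transcript ENSMUST00000123995.7 had 80.5 to 116 nt against 100.2 to 116 nt (log2 difference -0.15, limma adjusted p = 0.036). The call for Rpl23a was lost without library 21 or 25 of DMSO, 21 or 23 of MHY1485 at 24 h, or 25 of MHY1485 at 48 h (-0.14 to -0.12, highest limma adjusted p 0.104). That for Eif4a1 was lost without library 23 or 24 of DMSO, 21 or 23 of MHY1485 at 24 h, or 24 of MHY1485 at 48 h (-0.17 to -0.11, highest limma adjusted p 0.230).

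In Rpl3 the value differed with the reads taken. Over all reads of its retained_intron transcript the log2 difference was 0.07 (limma adjusted p = 0.33), with medians of 70.7 to 116 nt against 81.7 to 102 nt. Over the 2 to 10 reads in each library that reached the intron with a mapping quality of 10 or more, the median was 193 and 177 nt in DMSO at 24 h, 199.9 and 182 nt in MHY1485 at 24 h, 241 and 179 nt in DMSO at 48 h, and 185 and 181 nt in MHY1485 at 48 h. The productive Rpl3 reads of the same mapping quality had 83.1 to 102 nt. The sides did not overlap. The same could not be done for Tpi1 or Eef1g, where no read reached with that quality.

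Some members were assigned as many reads as the productive transcript or more. The Rpl36a nonsense_mediated_decay transcript had 2193 reads, 48.5% of the reads of the class and protein_coding transcripts together, and 99.0% of its reads spanned the member's junction, while 25.1% had a mapping quality of at least 10. Its medians, 86.2 to 103 nt, overlapped the productive ones, 88.0 to 101 nt, and the log2 difference was -0.00 (limma adjusted p = 0.99). For Cbx1 the member took 92.3% of these reads, for Papola, the canonical poly(A) polymerase, 82.2%, for Psmb6, a catalytic proteasome subunit, 71.8%, and for Wiz, a zinc finger protein of the G9a complex, 95.3%. All reads of the Cbx1, Papola and Wiz members reached, but only 34.6, 0.943 and 0% spanned the member's junction. The Papola member has 137 specific bases, and its 3′ end lies 137 nt from the nearest protein_coding one. Of the 206 Psmb6 reads 34.5% reached. Fam221b had 453 retained_intron reads and no protein_coding reads, and 3.75% had a mapping quality of at least 10. The nonsense_mediated_decay transcript of Cenpa, the centromeric histone, took 24.6 to 40.4% of the gene's reads, with medians of 100.1 to 164 nt against 83.8 to 116 nt, and its log2 difference of 0.13 did not pass the test (limma adjusted p = 0.35). Cbx1, Wiz and Cenpa were named after their values were seen.

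The other transcripts among the 10 with the most reads of a class had few reaching reads. In the nonsense_mediated_decay class Hnrnpa1 (ENSMUST00000230489.1), which encodes an RNA-binding splicing factor, had 474 reads, of which 7 reached, and library medians of 98.2 to 120.2 nt against 91.7 to 104 nt in its productive reads. Ppia, the gene of the prolyl isomerase cyclophilin A, had a nonsense_mediated_decay transcript with 382 reads, of which 80 covered its 5 specific bases, and a retained_intron transcript with 317 reads, of which 6 reached. Rpsa, of the small ribosomal subunit, had 328 reads with medians of 80.5 to 105 nt against 85.0 to 99.1 nt, while its 16 reaching reads had a median of 134 against 94.1 nt. Rpl14, of the large subunit, had 230 reads with 74.6 to 111 nt against 87.8 to 105 nt. Over all reads these sides overlapped. Gm21981 with 361 and Gm50387 with 177 reads, which overlap other genes on the same strand, had no protein_coding reads to compare. In the retained_intron class a second Eif4a1 transcript (ENSMUST00000128519.7) had 327 reads, of which 2 reached, and Gapdh, a glycolytic enzyme, 215 reads, of which 0 reached.

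Most splicing regulators on a list fixed for this comparison held members, where 3127 of all 13120 genes with reads did. The number of reads of a gene was not taken into account in these counts. Of 46 genes of SR proteins and hnRNPs 30 had members, as 30 retained_intron transcripts with 483 reads and 33 nonsense_mediated_decay transcripts with 1013 reads, 474 of them from the Hnrnpa1 transcript above. Per library the members took 7.70 to 10.4% of the reads of these genes. Their 154 reaching reads had a median tail of 133 nt against 107 nt in the productive reads. Both sides were pooled here over the genes, without weights to the gene mix and without a test. For a change in reads 6 members could be tested, of which 0 passed with limma at 24 h, where 0.0487% of all transcripts did. At 48 h 0 passed, where 1.07% of all did. Ptbp1, an hnRNP that represses exons, had a retained_intron transcript with 110 reads, of which 0 reached. The factors of nonsense-mediated decay itself held members in 3 of 21 genes with 2 retained_intron and 10 nonsense_mediated_decay reads. The exon junction complex had 3 of 10 genes with 27 and 5 reads. The list of detained-intron kinases and nuclear speckle genes, with the noncoding Meg3, Neat1 and Malat1, had 8 of 13 genes, among 10 with reads. Targets of the integrated stress response had 2 of 16 genes with 97 retained_intron reads. Factors of nuclear surveillance and tail synthesis had 11 of 22 genes with 28 and 148 reads, most of the latter from Papola.

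How many reads the members took with and without MHY1485 was compared between 2 libraries and 2 by an exact permutation test. Its smallest p is 0.333, so that no change could pass this test. The share of nonsense_mediated_decay reads among class and protein_coding reads of the same genes was 6.22% (Wilson 95% interval 5.94 to 6.51) and 6.27% (6.03 to 6.51) in DMSO at 24 h, and 7.08% (6.80 to 7.36) and 6.54% (6.24 to 6.85) in MHY1485. At 48 h it was 6.68% (6.41 to 6.97) and 6.92% (6.69 to 7.15) in DMSO, and 7.48% (7.24 to 7.73) and 7.29% (7.0 to 7.59) in MHY1485. The intervals cover counting error only. The MHY1485 libraries lay above the DMSO ones at both times, with means of 6.81 against 6.24% and 7.39 against 6.80%, and each exact permutation p was 0.333, the smallest possible. When only reads of mapping quality 10 or more were taken, the order was not kept. The share was then 3.54 and 3.46% in DMSO and 3.84 and 3.45% in MHY1485 at 24 h, and 3.78 and 3.46% against 4.74 and 3.75% at 48 h, so that the libraries overlapped at both times (exact permutation p = 1.0 and 0.667). The retained_intron share was 2.95 and 2.66% in DMSO and 2.96 and 2.69% in MHY1485 at 24 h, and 2.95 and 3.09% against 3.01 and 3.42% at 48 h, with overlap at both times (exact permutation p = 0.667 each).

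**Figure D5:**
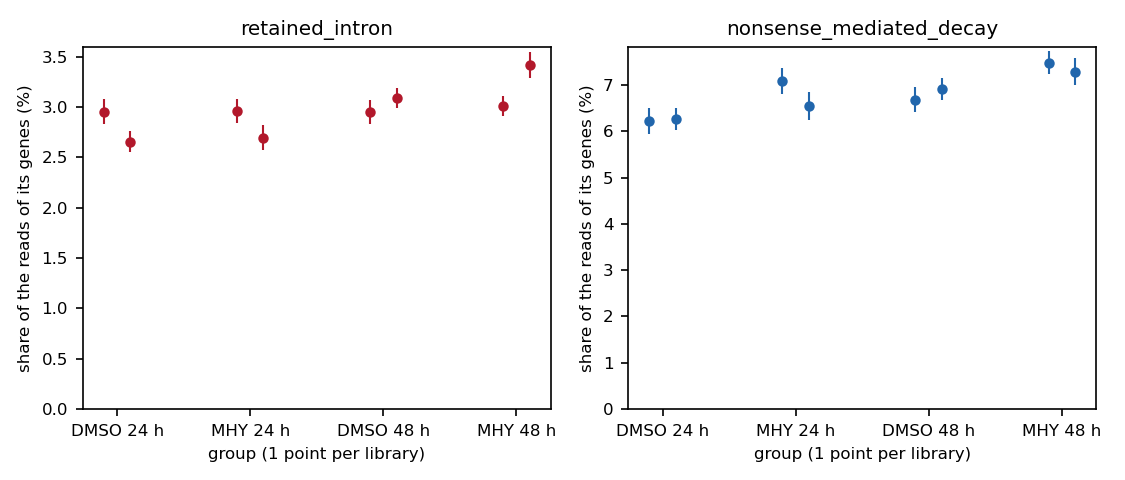
Share of the class in class and protein_coding reads of the same genes (percent, vertical axis) per library, with Wilson 95% intervals for counting error, by treatment and time. The nonsense_mediated_decay share is above DMSO in the MHY1485 libraries of both times, 7.08 and 6.54% against 6.22 and 6.27% at 24 h, and the retained_intron values overlap. All reads are plotted, and at a mapping quality of at least 10 the nonsense_mediated_decay libraries overlapped at both times.

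The tails of the classes relative to the reference were compared with and without the compound in the same way. The retained_intron median moved by -1.91 nt at 24 h and 2.15 nt at 48 h against DMSO (exact permutation p = 0.667 each), and the nonsense_mediated_decay median by -2.63 and 0.44 nt. The share of tails under 30 nt relative to the reference moved by -0.77 and 0.25 points in the retained_intron class and by 0.64 and -0.35 points in the nonsense_mediated_decay class. For tails of 30 to 90 nt the values were 1.03 and -1.76 points and 0.86 and 0.44 points. None could pass at 0.05 in this exact test of 2 libraries against 2.

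Fits across all transcripts called no member for a change in tails. With limma 0 of 17 retained_intron and 0 of 18 nonsense_mediated_decay members passed for the share of tails under 30 nt at 24 h, where 0% of 1866 transcripts passed, and 0 and 0 at 48 h, where 0.375% did (0.387% of the protein_coding ones). At an unadjusted p of 0.05 there were 0 and 0 members at 24 h and 1 and 2 at 48 h, against 109 and 197 of all 1866 transcripts at these times. For tails of 30 to 90 nt 0 members passed at 24 h or 48 h, against 0% and 0.268% of all transcripts (0% and 0.221% of the protein_coding ones). At an unadjusted p of 0.05 there were 1 and 0 members at 24 h and 3 and 1 at 48 h, against 83 and 114 of all 1866 transcripts. The members with the smallest p-values were Rpl36a (change in the log2 odds of a tail under 30 nt at 48 h 2.58, limma adjusted p = 0.124) and Rpl3 (3.16, limma adjusted p = 0.155). Without 1 library these changes were 1.53 to 3.15 in Rpl36a and 2.37 to 3.49 in Rpl3. For the log2 ratio of a member's reads to the other reads of its gene 0 of 51 retained_intron and 0 of 42 nonsense_mediated_decay members passed with limma at either time, against 0% of 1202 transcripts. At an unadjusted p of 0.05 there were 5 and 1 members at 24 h and 2 and 4 at 48 h, against 50 and 59 of all 1202 transcripts.

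Read counts were tested for 58 retained_intron and 56 nonsense_mediated_decay members among 4104 transcripts. At 24 h 0 members passed with limma, against 0.0487% of all transcripts and 0.0507% of the protein_coding ones. At an unadjusted p of 0.05 there were 3 and 1 members, against 183 of all 4104 transcripts. At 48 h the retained_intron transcript of Tpi1 passed, 1.72% of the tested members of its class, against 1.07% of all transcripts and 1.09% of the protein_coding ones. Below an unadjusted p of 0.05 were 8 members of each class and 516 of all 4104 transcripts. The Tpi1 reads were 39 and 52 in DMSO and 34 and 26 in MHY1485 at 24 h, and 38 and 61 in DMSO and 20 and 37 in MHY1485 at 48 h. The log2 change at 48 h was -1.03 (SE 0.27, limma adjusted p = 0.031). Without library 24 of the MHY1485 group at 48 h it was -0.13, and the call was also lost without library 25 of DMSO at 48 h (-0.94) and without library 21 or 23 of MHY1485 at 24 h (-1.02 each). It was lost as well when the 4 libraries of 48 h were fitted alone (-1.0, limma adjusted p = 0.123), with scaling by total reads (-0.92, limma adjusted p = 0.060) and with the library number as a block (-0.76, limma adjusted p = 0.216). None of its reads had a mapping quality of at least 10, and the member's share of the gene's reads was 8.0 to 14.5% over the libraries.

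Of the 11 members with at least 5 reads of mapping quality 10 or more in every library, the Rpl12 nonsense_mediated_decay transcript had tails that separated by compound. Over its reads with a mapping quality of 10 or more, the median was 214 and 199.6 nt in DMSO at 24 h, 206 and 209 nt in DMSO at 48 h, 115 and 161 nt in MHY1485 at 24 h, and 125 and 107 nt in MHY1485 at 48 h. All 4 MHY1485 libraries lay below all 4 DMSO libraries, on 8 to 37 reads each. Among 2336 transcripts with at least 5 such reads in every library, 1.67% showed this order (1.64% of the protein_coding ones), and among the members 0 of 3 in the retained_intron and 1 of 8 (12.5%) in the nonsense_mediated_decay class. Rpl12 was named after its values were seen, and at each time the comparison of 2 libraries with 2 cannot go below an exact p of 0.333. Over all Rpl12 member reads, mapping quality aside, the values overlapped at 24 h.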

How the data were processed

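The values are poly(A) tail lengths of single nanopore direct RNA reads from 8 libraries of P19 cells. The authors used Guppy for base calling, minimap2 (version 2.20, also in the submitters' processing notes) for alignment to GENCODE vM17 transcripts of mm10, Nanopolish for the tail estimates and Deeplexicon to sort reads by barcode. The deposited table has 2439710 alignments of 2364352 reads and is not filtered. It gives the tail in nt and the aligned span, the mapping quality score as the aligner wrote it, and the barcode confidence as a fraction, as deposited. A PASS tag was carried by 2027638 alignments, which gave 2005242 lines of the mRNA class at 1 line per read and transcript. Setting aside 66955 mitochondrial and 12169 pseudogene lines left 1926118.

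Groups follow the labels. Member-specific bases and introns came from vM21 (66 members were not found there). Protein_coding reads were weighted to each class's gene mix within a library. Library values were compared by exact permutation tests, and single transcripts with limma 3.58.1 in R 4.3.3, fitted over all transcripts that passed. Tail fits asked for at least 10 reads in every library, and fits of counts (median-of-ratios scaling) and of gene shares for at least 10 in at least 2. Shares were fitted as log2 odds with a pseudocount of 0.5. Python 3.11.15, pandas 2.3.3, numpy 2.4.6, scipy 1.17.1 and matplotlib 3.10.9 were used, and the tests were tried on simulated data. Transcripts were named from the 10 with the most reads per class, those past a threshold, and list members with at least 100 reads, and others are marked in the text. Members and lists were chosen with earlier results of these data known. Alternatives covered mapping quality, the number of specific bases, barcode confidence (0.9), the reference, minimum reads, tail bounds, runs, scaling and single libraries. Wilson 95% intervals cover counting error only. Some items are not reported here.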

Additional observations from a re-analysis of the deposited data

Results flagged for a closer look

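The change with MHY1485 in the share of retained_intron tails of 30 to 90 nt, relative to the protein_coding reads of the same genes, had opposite signs at the 2 times. It was 1.03 points at 24 h and -1.76 points at 48 h, and at each time the libraries of the groups did not overlap. The difference of 48 h minus 24 h was -2.79 points (exact permutation p = 0.0556, the smallest this test allows). At 24 h the change was 0.17 points at a mapping quality of at least 10 and -0.72 points against pooled reference reads. It was -1.55 points within run 1 and -1.27 points within run 3. At 48 h the change was -0.60 points at a barcode confidence of at least 0.9, where the libraries overlapped, -0.67 points against pooled reference reads and -0.057 points in genes with at least 30 reads of both kinds, where the change at 24 h was -2.19 points. Time and sequencing run cannot be told apart here.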

How the results depend on the processing

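In what follows RI and NMD stand for the retained_intron and nonsense_mediated_decay classes, and values are differences from the protein_coding reads (nt for medians, percentage points for shares). Changes at a time are MHY1485 against DMSO, none of which can pass the exact test of 2 libraries against 2. The cause of each change was not tested. Of 110 comparisons of a class with the reference or between reads under other settings 82 kept direction and call, and of 156 values for MHY1485 123 kept their direction. Reads aligned to 1 transcript changed no call against the reference. A mapping quality of at least 10 gave 14.3 in RI median tail, -7.39 in RI tails of 30 to 90 nt and -0.81 in NMD tails under 30 nt, which passed, and turned RI tails under 30 nt to -0.049 over all reads and -0.070 over reaching reads. Reaching reads gave 12.5 in RI median tail and -6.55 in RI tails of 30 to 90 nt, which passed, and 0.068 in RI tails under 30 nt, which did not. A barcode confidence of at least 0.9 gave 2.04 in RI median tail and -1.43 in RI tails of 30 to 90 nt, which passed, and ended the calls at 0.51 in RI tails under 30 nt and 12.3 in NMD median tail of reaching against other reads. Pooled reference reads gave 7.59 in RI and 8.37 in NMD median tail and -5.33 in RI tails of 30 to 90 nt. Genes with at least 30 reads of both kinds ended the calls at 0.37 in RI tails under 30 nt, 1.37 in NMD median tail and -0.84 in NMD tails of 30 to 90 nt, and turned the RI median tail to -1.05 and RI tails of 30 to 90 nt to 0.48. With bounds of 20 and of 40 to 80 nt the values were 0.41 in RI and 0.033 in NMD short tails, and 0.12 in RI and -0.24 in NMD middle tails, none of them passing. Weighting the reference to aligned length turned RI tails under 30 nt of reaching reads to -0.40, and adding junction reads ended the call at -2.50 in NMD tails of 30 to 90 nt of reaching reads. Over members with at least 10 specific bases, NMD tails under 30 nt of reaching reads gave -1.43 in ribosomal protein genes, which passed, and turned to 0.12 in other genes, and the call ended at -8.32 in NMD tails of 30 to 90 nt of reaching against other reads.

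The changes with MHY1485 turned sign in the following cases. A mapping quality of at least 10 gave -0.011 in RI read share, 6.90 in RI median tail, 3.42 in NMD median tail and -5.22 in NMD tails of 30 to 90 nt at 24 h, and -6.00 in NMD median tail and 0.38 in NMD tails under 30 nt at 48 h. A barcode confidence of at least 0.9 gave 0.35 in NMD tails under 30 nt and -0.27 in NMD tails of 30 to 90 nt at 48 h. Pooled reference reads gave 2.08 in RI median tail, -0.72 in RI and -0.039 in NMD tails of 30 to 90 nt at 24 h, and -0.0075 in RI median tail at 48 h. Genes with at least 30 reads gave 2.80 in RI median tail and -2.19 in RI tails of 30 to 90 nt at 24 h, and -0.25 in RI tails under 30 nt, -1.56 in NMD median tail and 0.57 in NMD tails under 30 nt at 48 h. Reaching reads gave 0.29 in RI median tail, 0.13 in NMD median tail, -0.51 in NMD tails under 30 nt and -1.24 in NMD tails of 30 to 90 nt at 24 h, and -1.89 in NMD median tail at 48 h. Bounds of 20 and of 40 to 80 nt gave -0.088 in NMD short tails at 24 h. Run 1 gave -0.045 in RI read share, 1.43 in RI median tail and -1.55 in RI tails of 30 to 90 nt, run 2 gave -0.29 in NMD tails under 30 nt, and run 3 gave 0.55 in RI tails under 30 nt, -1.27 in RI and -4.02 in NMD tails of 30 to 90 nt and 5.73 in NMD median tail. Run 5 gave 0.44 in NMD tails under 30 nt and -0.39 in NMD tails of 30 to 90 nt.

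Leaving out 1 library in turn gave 0.50 to 0.68 in RI tails under 30 nt, 1.57 to 2.46 in NMD median tail and -1.05 to -0.66 in NMD tails of 30 to 90 nt. For reads that did not reach it gave -3.74 to -2.60 in RI median tail, 0.64 to 0.83 in RI tails under 30 nt, 0.96 to 1.34 in RI tails of 30 to 90 nt, -0.85 to 0.15 in NMD median tail, -0.074 to 0.27 in NMD tails under 30 nt and -0.24 to 0.56 in NMD tails of 30 to 90 nt. For reaching reads of other than ribosomal protein genes it gave 6.12 to 8.40 in RI median tail, -4.67 to -3.51 in RI tails of 30 to 90 nt, -0.34 to 0.58 in NMD tails under 30 nt and -1.14 to 0.97 in NMD tails of 30 to 90 nt. The RI calls among these and those for all NMD reads were lost in 7 or 8 of the 8 fits, where 7 libraries cannot give an exact p under 0.015625 and the highest adjusted p was 0.0993. For the share under 30 nt of reaching reads it gave -0.16 to 0.19 in RI, -0.50 to 0.14 in NMD, -0.18 to 0.35 in RI with an own 3′ end, -0.089 to 0.30 in RI with a shared 3′ end and -1.17 to -0.60 in NMD ribosomal protein reads, and -4.18 to -2.53 in RI tails of 30 to 90 nt with an own 3′ end. For reaching against other reads of the same class it gave 10.4 to 16.3 in NMD median tail, lost in 6 of 8 fits, and -1.38 to 0.10 in RI and -0.80 to 0.22 in NMD tails under 30 nt. The changes with MHY1485 were -0.13 to 0.17 in RI read share and -0.12 to 1.40 in NMD tails under 30 nt at 24 h, and -0.0059 to 0.41 in RI read share, -0.42 to 4.72 in RI and -0.97 to 1.85 in NMD median tail, -0.054 to 0.56 in RI and -0.79 to 0.10 in NMD tails under 30 nt and -0.50 to 1.38 in NMD tails of 30 to 90 nt at 48 h.

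The 6 members with a different tail became 1 with at least 30 reads per library, 11 with at least 5, 1 at a mapping quality of at least 10 (Rpl10a), 2 without weights and 3 to 5 without 1 library. Of read counts, 0 members at 24 h became 5 and 1 at 48 h became 7 with no minimum on counts, and that 1 (Tpi1) became 0 at a mapping quality of at least 10, with the 4 libraries of 48 h alone, and with total reads for scaling. Without 1 library it was 0 to 2, and the members changed in tails under 30 nt at 48 h were 0 to 1. The change at 48 h in the log2 ratio of the Rpl10a member to the other reads of its gene, 0.70, was -0.20 to 1.07 without 1 library. The deviations of libraries with the same number had a correlation of -0.01 at 24 h and 0.11 at 48 h over 1866 transcripts, and the labels do not say what a shared number marks. With the replicate block the members changed in read count at 48 h were 0, the Tpi1 change was -0.76 (limma adjusted p = 0.216), and no other count of members called with MHY1485 moved.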
